A study of Mus musculus with 15 samples.

Results

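A set of 7 genes used as markers of the dermal papilla was followed across skin that had healed under implanted hydrogel beads and across normal skin of the mouse. The members were Corin, Sox2, Crabp1, Prom1, Alx4, Tbx18 and Trps1, matched by gene symbol, and all 7 were found among the 18929 genes of the deposited table. Each of the 7 also passed the filter on low counts, which kept 15369 genes for testing. The lowest estimated count of any member in any sample was 16, for Corin, and the highest was 2611, for Trps1.

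The dermal papilla is a cluster of specialised fibroblasts at the base of the hair follicle. It is enclosed by the hair matrix during growth, and it sends signals that instruct the overlying keratinocytes to proliferate and to form the hair shaft and its sheaths. Its size and its transcripts change with the phase of the hair cycle, and no single marker is expressed only there.

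Bulk poly(A) RNA was sequenced from 15 skin samples in 5 groups of 3. All mice were wild type, and the study's methods describe male balb/c animals of 4 to 6 weeks. The dorsal skin had been excised to full thickness over a wound of 10 mm or 15 mm. Acellular groups received Matrigel beads without cells, and HDB groups received printed high-density Matrigel beads laden with human umbilical cord mesenchymal stem cells (MSCs). The fifth group was unwounded skin, labelled normal growth, and it carried no beads. The methods state that skin for sequencing was taken after 4 weeks of implantation, and they give another, earlier end for the wound experiment. The transplanted cells were human while reads were assigned to mouse genes, and what such cells contributed to a count was not tested. Nothing in the sources says whether the 3 samples of a group came from separate animals, so p-values measure the spread between these samples, which may be technical.

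Total estimated counts lay between 15840551 and 18404188 per sample. The 6 epidermal marker genes summed to at least 5401 CPM in every sample. Replicate 1 of the acellular 15 mm group stood apart in the genes of the growing follicle, and several of the results are also given without it. Levels are given as CPM, the counts scaled to a common library size after TMM normalization, with the standard deviation (SD) over the 3 samples of a group. A gene was called when its p-value from edgeR's quasi-likelihood test, adjusted by the Benjamini-Hochberg method over all 15369 genes, was under 0.05.

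Corin and Prom1 were the pair of members called against normal skin in all 4 healed groups, and their promoters are shown for that reason. The sequences are those of RefSeq on GRCm38.p6, from 250 bases before to 50 bases after an annotated start site, written 5′ to 3′ on the gene's own strand, which is the minus strand for both. Corin has 1 such entry (chr5:72504491-72504790). Of the entries of Prom1, an upstream start (chr5:44101687-44101986) and another farther downstream, labelled internal (chr5:44094719-44095018), are printed. Both of these windows lie inside the annotated span of Prom1. Capitals mark matches to 4 short motifs that were searched on both strands. The core bound by Lef and Tcf factors was written as CTTTGA. For the CCAAT box the search used those 5 letters. The motif of the GC box was GGGCGG in this search. For the TATA box the letters were TATAAA. No printed match overlaps another.
Corin: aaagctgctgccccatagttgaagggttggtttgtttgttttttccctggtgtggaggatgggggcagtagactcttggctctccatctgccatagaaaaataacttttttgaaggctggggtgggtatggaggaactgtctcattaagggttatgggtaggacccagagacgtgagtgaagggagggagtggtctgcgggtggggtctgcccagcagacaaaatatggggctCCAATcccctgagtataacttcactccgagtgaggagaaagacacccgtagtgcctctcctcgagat
Prom1 upstream start: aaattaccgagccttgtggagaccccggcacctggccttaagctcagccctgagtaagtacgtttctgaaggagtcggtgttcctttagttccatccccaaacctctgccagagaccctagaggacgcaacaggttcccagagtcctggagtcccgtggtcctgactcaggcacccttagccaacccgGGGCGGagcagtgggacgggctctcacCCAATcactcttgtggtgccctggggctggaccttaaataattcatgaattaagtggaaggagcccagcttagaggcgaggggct
Prom1 internal start: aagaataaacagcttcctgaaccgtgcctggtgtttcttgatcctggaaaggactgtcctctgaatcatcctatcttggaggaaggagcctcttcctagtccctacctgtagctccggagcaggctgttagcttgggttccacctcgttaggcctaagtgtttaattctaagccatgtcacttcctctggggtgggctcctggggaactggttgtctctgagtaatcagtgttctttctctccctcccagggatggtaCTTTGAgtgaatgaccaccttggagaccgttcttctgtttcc
Corin held a CCAAT box at position -17 from its start and no other match. The upstream start of Prom1 held a GC box at -62 and a CCAAT box at -35, and its internal start held the Lef and Tcf core at position 8. Among 32851 promoters of the same length, the Lef and Tcf core occurred in 16%, the CCAAT box in 37.4%, the GC box in 35.7% and the TATA box in 13.6%. These matches describe the sequence and are not sites of binding. Promoters were matched for 5 of the 7 members, and the remaining members were Alx4 and Trps1.

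Corin encodes a transmembrane serine protease that is made in the dermal papilla, where it modifies the agouti pathway of coat colour. The gene (identifier 53419) spans chr5:72299948-72504540 on the minus strand. Normal skin held 1.12, 1.14 and 1.34 CPM in its 3 samples (1.2 ± 0.122, SD, n = 3). Acellular skin held 7.48, 4.66 and 18.6 CPM after 10 mm wounds (10.3 ± 7.40, SD, n = 3) and 49.1, 11.5 and 9.82 CPM after 15 mm wounds (23.5 ± 22.2, SD, n = 3). HDB skin held 10.0, 4.57 and 5.28 CPM after 10 mm wounds (6.62 ± 2.95, SD, n = 3) and 14.1, 12.5 and 23.4 CPM after 15 mm wounds (16.6 ± 5.89, SD, n = 3). All 12 healed samples lay above every normal sample, while the healed groups overlapped with their neighbours in the order of means.

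Corin rose against normal skin in each healed group. The log2 fold change was 3.09 in acellular 10 mm skin (SE 0.705, adjusted p = 0.0142, edgeR) and 4.28 in acellular 15 mm skin (SE 0.730, adjusted p = 0.00372, edgeR). It was 2.45 in HDB 10 mm skin (SE 0.697, adjusted p = 0.0408, edgeR) and 3.78 in HDB 15 mm skin (SE 0.719, adjusted p = 0.0216, edgeR). These comparisons share the 3 normal samples and are not independent of each other. Over the mean of the 4 healed groups the log2 fold change was 3.40 (SE 0.651, adjusted p = 0.00428, edgeR), and the call held in all 22 alternatives, whose adjusted p reached 0.0274 at most. The call in HDB 10 mm skin was lost when any of the 6 samples was left out (log2 fold change 2.04 to 2.67, adjusted p up to 0.116), and that in HDB 15 mm skin when any but HDB replicate 2 was left out (3.46 to 3.89, adjusted p up to 0.103). Without replicate 1 of the acellular 15 mm group the rise in that group was 3.14, and it was still called. In acellular 10 mm skin the call was lost without normal replicate 2 or replicate 3 (log2 fold change 3.03 and 3.16, adjusted p up to 0.0537).

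Prom1 encodes prominin 1, a glycoprotein of membrane protrusions that is present in dermal papilla cells and also in several epithelia. The gene (identifier 19126) spans chr5:43993621-44102047 on the minus strand. Normal skin held 25.5, 17.2 and 20.2 CPM (21.0 ± 4.20, SD, n = 3). Acellular skin held 4.97, 7.02 and 5.67 CPM after 10 mm wounds (5.89 ± 1.04, SD, n = 3) and 3.34, 5.25 and 7.81 CPM after 15 mm wounds (5.47 ± 2.24, SD, n = 3). HDB skin held 7.52, 4.20 and 7.0 CPM after 10 mm wounds (6.24 ± 1.79, SD, n = 3) and 8.40, 7.94 and 5.36 CPM after 15 mm wounds (7.23 ± 1.64, SD, n = 3). Every one of the 12 healed samples lay below all normal samples, in the opposite direction to Corin, and the healed groups overlapped with each other.

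Prom1 fell against normal skin in each healed group, with log2 fold changes of -1.83 in acellular 10 mm skin (SE 0.327, adjusted p = 0.00644, edgeR) and -1.94 in acellular 15 mm skin (SE 0.328, adjusted p = 0.00372, edgeR). The values were -1.75 in HDB 10 mm skin (SE 0.325, adjusted p = 0.0125, edgeR) and -1.53 in HDB 15 mm skin (SE 0.323, adjusted p = 0.0290, edgeR). Over the mean of the 4 healed groups the log2 fold change was -1.76 (SE 0.226, adjusted p = 0.00107, edgeR), and the call held in all 22 alternatives. In bulk skin, fewer cells of a type and less RNA per cell cannot be told apart. The call in HDB 10 mm skin was lost without HDB replicate 2 (log2 fold change -1.52) or normal replicate 3 (-1.77). That in HDB 15 mm skin was lost when any sample but HDB replicate 2 was left out (log2 fold change -1.66 to -1.36, adjusted p up to 0.141) and in the fit with a replicate block (-1.52, adjusted p = 0.0561).

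**Figure D1:**
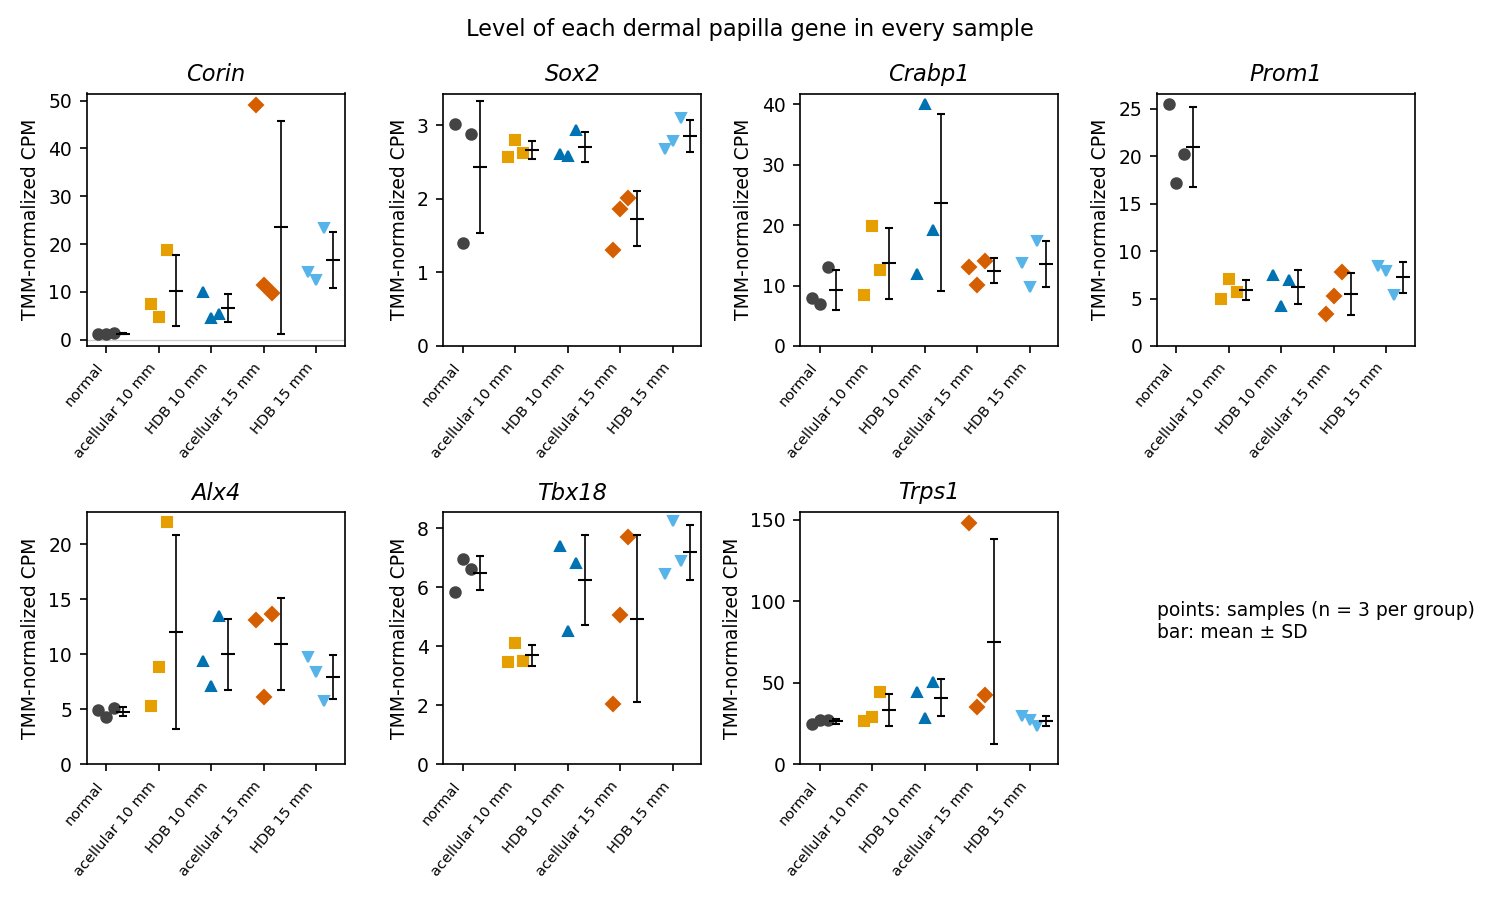
Level of each of the 7 dermal papilla genes in CPM (vertical axis, linear, from 0) in the 5 groups (horizontal axis), with a point for each sample and a bar for the mean ± SD of 3 samples. The 12 healed samples lie above the normal samples for Corin and Alx4 and below them for Prom1, and 1 acellular 15 mm sample is far above the rest for Corin and Trps1.

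The transcription factors among the members were Alx4, Trps1, Tbx18 and Sox2. Alx4, an aristaless-like homeobox factor of mesenchyme (identifier 11695, chr2:93642434-93681341, plus strand), held 4.92, 4.35 and 5.10 CPM in normal skin. It held 5.31, 8.82 and 22.0 CPM in acellular 10 mm skin and 13.1, 6.13 and 13.6 CPM in acellular 15 mm skin. HDB skin held 9.41, 7.10 and 13.4 CPM after 10 mm wounds and 9.71, 8.37 and 5.76 CPM after 15 mm wounds. All 12 healed samples lay above the normal samples, the lowest of them only slightly so. Alx4 was nevertheless not called by edgeR in any group, with log2 fold changes of 1.33, 1.19, 1.06 and 0.73 in acellular 10 mm, acellular 15 mm, HDB 10 mm and HDB 15 mm skin (adjusted p = 0.0624, 0.0711, 0.146 and 0.338, edgeR). The value in acellular 10 mm skin was 0.56 without replicate 3 of that group. Alternatives called Alx4 in acellular 10 mm skin (2 of 14, adjusted p from 0.0216 to 0.320), in acellular 15 mm skin (2 of 14, 0.0317 to 0.167) and in HDB 10 mm skin (1 of 14, 0.0397 to 0.380), DESeq2 being among them in both acellular groups. Over the mean of the healed groups the log2 fold change was 1.08 (SE 0.398, adjusted p = 0.0566, edgeR), and it was called in 6 of 22 alternatives, with adjusted p from 0.0150 to 0.173. Alx4 overlaps Ext2 on the opposite strand, and the sources do not say whether reads were counted by strand.

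Trps1, a GATA-type zinc finger repressor named for a human syndrome with sparse hair (identifier 83925, chr15:50654757-50890631, minus strand), held 24.6, 27.3 and 27.4 CPM in normal skin. Acellular skin held 26.4, 29.3 and 44.3 CPM after 10 mm wounds and 148, 35.5 and 42.4 CPM after 15 mm wounds. HDB skin held 44.2, 28.4 and 50.3 CPM after 10 mm wounds and 29.5, 27.5 and 23.6 CPM after 15 mm wounds. A single acellular 15 mm sample was high, and HDB 15 mm skin overlapped with normal skin. Trps1 rose in acellular 15 mm skin against normal skin (log2 fold change 1.51, SE 0.446, adjusted p = 0.0255, edgeR). The call was made in 8 of 14 alternatives, with adjusted p from 0.00217 to 0.117. The value was 0.56 without acellular 15 mm replicate 1 (adjusted p = 0.117), and omission of any normal sample also ended the call (log2 fold change 1.45 to 1.53). In the other healed groups the log2 fold changes were 0.33, 0.63 and 0.02 in acellular 10 mm, HDB 10 mm and HDB 15 mm skin, and none was called.

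Tbx18, a T-box factor of early dermal condensates that also marks mural cells of vessels (identifier 76365, chr9:87702800-87731260, minus strand), held 5.83, 6.96 and 6.64 CPM in normal skin. Acellular skin held 3.48, 4.10 and 3.51 CPM after 10 mm wounds and 2.04, 5.08 and 7.70 CPM after 15 mm wounds. HDB skin held 7.40, 4.52 and 6.83 CPM after 10 mm wounds and 6.46, 8.24 and 6.89 CPM after 15 mm wounds. Acellular 10 mm skin lay below normal skin without overlap, whereas the other healed groups overlapped with it. No difference from normal skin was called, and the log2 fold change in acellular 10 mm skin was -0.81 (SE 0.368, adjusted p = 0.126, edgeR). That difference was called in 1 of 14 alternatives, the fit of the compared groups alone (-0.82, adjusted p = 0.0138), and its adjusted p ranged up to 0.272.

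Sox2, a transcription factor of the papilla of some hair types and of Merkel cells (identifier 20674, chr3:34649995-34652461, plus strand), had low counts, 21 to 55 per sample. It held 3.02, 1.41 and 2.88 CPM in normal skin. Acellular skin held 2.57, 2.81 and 2.63 CPM after 10 mm wounds and 1.30, 1.87 and 2.02 CPM after 15 mm wounds. HDB skin held 2.60, 2.58 and 2.94 CPM after 10 mm wounds and 2.68, 2.79 and 3.11 CPM after 15 mm wounds. The acellular 15 mm samples were low, and normal skin overlapped with every healed group. No difference from normal skin was called. The gene lies within the span of the noncoding transcript Sox2ot on the same strand, which was not analysed here. Of the 7 Merkel cell markers listed, Atoh1 and Insm1 were at 0 in some samples and did not pass the filter. Of the 5 tested, edgeR called 1 higher than in normal skin for acellular skin after 10 mm wounds and 3 after 15 mm wounds, and for HDB skin it called none at 10 mm and 1 higher at 15 mm, beside 20.3%, 30.2%, 12.3% and 5.18% of all genes called in the same order. None was called lower in any of these groups, although the fitted levels of 3, 1, 2 and 1 of the 5 were lower. Isl1, the marker with the highest mean level, averaged 11.8 CPM in normal skin and 3.52, 1.66, 3.93 and 3.30 CPM in the healed groups in that order, with no call. Their part in the level of Sox2 was not tested.

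Crabp1, which encodes a cytoplasmic binding protein of retinoic acid (identifier 12903, chr9:54764748-54773110, plus strand), held 7.87, 6.90 and 13.1 CPM in normal skin. Acellular skin held 8.39, 19.9 and 12.6 CPM after 10 mm wounds and 13.1, 10.2 and 14.1 CPM after 15 mm wounds. HDB skin held 11.9, 40.1 and 19.2 CPM after 10 mm wounds and 13.7, 9.70 and 17.4 CPM after 15 mm wounds. The groups overlapped throughout, and HDB 10 mm replicate 2 was the highest sample. The log2 fold change of HDB 10 mm against normal skin was 1.35 (SE 0.440) and was not called (adjusted p = 0.0615, edgeR, from 0.0129 to 0.294 over 14 alternatives, 3 of which called it), and without HDB 10 mm replicate 2 it was 0.75. The other healed groups lay between 0.42 and 0.56.

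Levels of different genes can be compared only per length, and CPM per kilobase of exon sequence (GENCODE) was used. In normal skin Crabp1 had the highest mean level at 11.6 CPM per kilobase, followed by Prom1 at 2.92, Trps1 at 1.98, Tbx18 at 1.37, Sox2 at 1.18, Alx4 at 0.678 and Corin at 0.222. In acellular 15 mm skin the mean of Corin was 4.35 CPM per kilobase, from sample values of 9.09, 2.13 and 1.82, beside 15.5 for Crabp1 and 5.63 for Trps1. Without replicate 1 of that group the means were 1.97 for Corin, 2.91 for Trps1 and 15.1 for Crabp1. In the order of the 5 group means of a gene, neighbouring groups separated without overlap in only 3 places. These were normal below HDB 10 mm skin for Corin, HDB 15 mm below normal skin for Prom1, and normal below HDB 15 mm skin for Alx4.

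**Figure D2:**
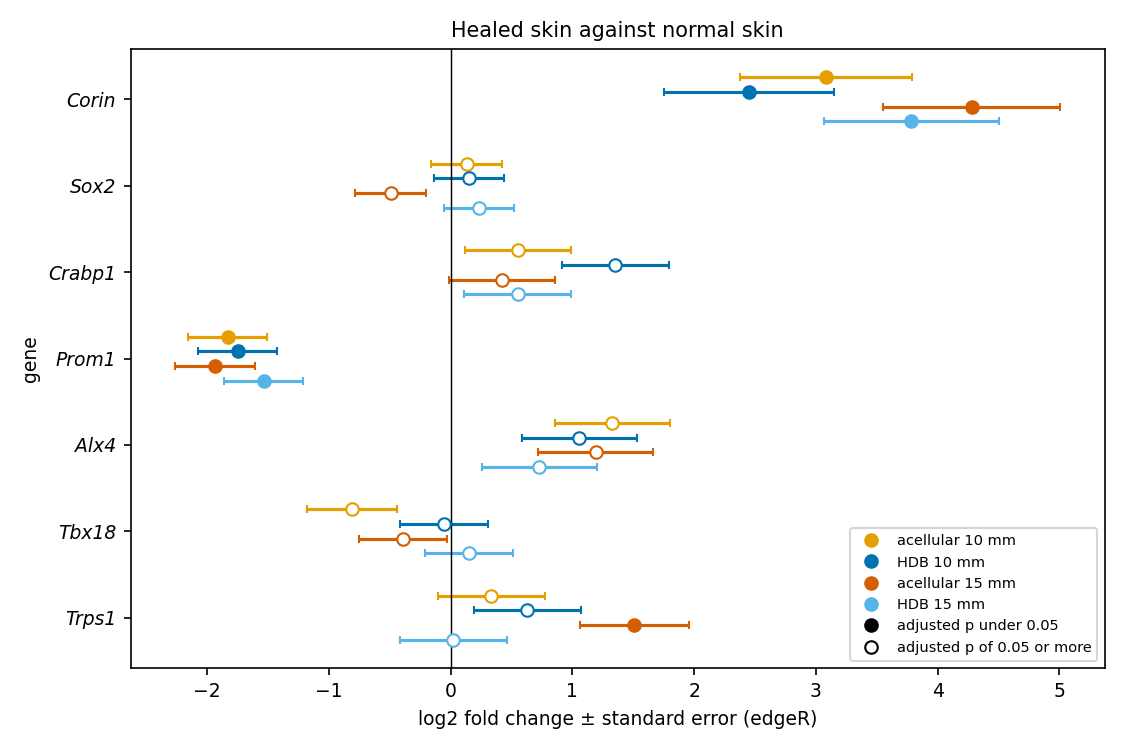
Log2 fold change ± standard error of each member in 4 healed groups against normal skin (horizontal axis, edgeR), with filled points where the adjusted p was under 0.05. Corin lies between 2.45 and 4.28 and Prom1 between -1.94 and -1.53, while Trps1 is filled in acellular 15 mm skin only.

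The number of members called was set beside the share of all genes called in the same comparison. In acellular 10 mm skin 2 of 7 were called, beside 20.3% of all genes tested, and in acellular 15 mm skin 3 of 7, beside 30.2%. In HDB 10 mm skin 2 of 7 were called, beside 12.3%, and in HDB 15 mm skin 2 of 7, beside 5.18%. Over the mean of the healed groups 2 of 7 were called, beside 30.9%. The members' median log2 fold change in the 4 groups was 0.33, 0.42, 0.63 and 0.23 in that order, and the median over all genes was 0.03, 0.06, 0.02 and 0.02. These shares varied with the samples fitted: with 1 sample left out at a time, the number of all genes called went from 3125 to between 800 and 1853 in acellular 10 mm skin, from 4642 to between 2304 and 5805 in acellular 15 mm skin, from 1895 to between 78 and 2725 in HDB 10 mm skin, from 796 to between 34 and 1340 in HDB 15 mm skin, and from 4746 to between 1848 and 6229 over the mean.

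Members were also counted by whether the samples of a healed group and of normal skin stood apart. In acellular 10 mm skin 4 of 7 members had no overlap with normal skin, beside 56.3% of all genes, and in acellular 15 mm skin 4 of 7, beside 44.0%. In HDB 10 mm skin the count was 4 of 7, beside 49.1%, and in HDB 15 mm skin 3 of 7, beside 46.4%. Corin, Prom1 and Alx4 kept all 12 healed samples apart from the normal ones, beside 21.0% of all genes. A call in the same direction in all 4 comparisons, as for Corin and Prom1, was made for 2.86% of all genes, 1.46% upward and 1.39% downward.

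The comparison of HDB with acellular skin asked whether the cell-laden beads changed the level of these genes at the same wound size. No member was called by edgeR, whether within a wound size or averaged over them (10 mm, 15 mm and both in this order), beside 0.0%, 2.93% and 0.0% of all genes. At an unadjusted p under 0.05 there were 0, 2 and 1 of 7 members, beside 3.53%, 23.2% and 15.8% of all genes. DESeq2 called 0, 1 and 0 members, the 1 being Trps1 at 15 mm, beside 0.111%, 14.1% and 2.76% of all genes. The median log2 fold change of the members was 0.08 at 10 mm and 0.13 at 15 mm, and that of all genes was -0.01 and 0.00.

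Trps1 at 15 mm was the largest of these differences. Its log2 fold change of HDB against acellular skin was -1.49 (SE 0.445, unadjusted p = 0.00558 and adjusted p = 0.0834, edgeR), and the samples did not overlap. The adjusted p ranged from 0.00709 to 0.464 over 14 alternatives, with a call by DESeq2 and without acellular 15 mm replicate 2 or replicate 3. With acellular 15 mm replicate 1 left out it fell short of a call, at a log2 fold change of -0.54. At 10 mm the value was 0.30, and the interaction of treatment and size was -1.78 (SE 0.622, adjusted p = 0.234, edgeR), or -0.83 without acellular 15 mm replicate 1. No member was called for the interaction by edgeR, beside 0.0% of all genes, 1 had an unadjusted p under 0.05, beside 13.4%, and DESeq2 called Trps1, beside 5.54% (adjusted p = 0.0441, the lowest of 20 alternatives, of which the highest was 0.928).

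Sox2 was the other member that separated at 15 mm, where HDB skin lay above acellular skin in all 3 samples. The log2 fold change was 0.72 (SE 0.290, unadjusted p = 0.0276 and adjusted p = 0.165, edgeR), and at 10 mm it was 0.02. The 2 separated members at 15 mm stand beside 20.3% of all genes. At 10 mm Tbx18 alone separated, beside 11.0% of all genes, with a log2 fold change of 0.76 that was not called. Over both sizes the Tbx18 difference was 0.65 (SE 0.258, unadjusted p = 0.0266 and adjusted p = 0.278, edgeR). With 3 samples against 3, the exact two-sided permutation test cannot give a p under 0.1. Over both sizes, with labels exchanged within size, it has 400 arrangements. There the unadjusted exact permutation p was 0.025 for Tbx18, 0.04 for Sox2 and 0.29 to 0.555 for the other members.

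Between HDB and acellular skin, Corin showed a log2 fold change of -0.63 after 10 mm wounds and -0.50 after 15 mm wounds, with -0.56 for the average (adjusted p = 0.519, edgeR). These directions rested on single samples. The 10 mm value turned to 0.12 once replicate 3 of its acellular group was omitted. Omission of replicate 1 of acellular 15 mm skin gave 0.64 at 15 mm and 0.0048 for the average. For Prom1 the difference was 0.08 at 10 mm and 0.40 at 15 mm, for Crabp1 0.80 and 0.13, and for Alx4 -0.27 and -0.46. The 10 mm value of Crabp1 was 0.20 without HDB replicate 2 and 1.17 without acellular replicate 2, and that of Alx4 was 0.50 without acellular replicate 3. The 10 mm value of Prom1 and the 15 mm value of Crabp1 also changed sign when single samples were left out. In such fits the 15 mm value ranged from 0.15 to 0.75 for Prom1 and from -0.75 to -0.27 for Alx4. None of these differences was called.

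**Figure D3:**
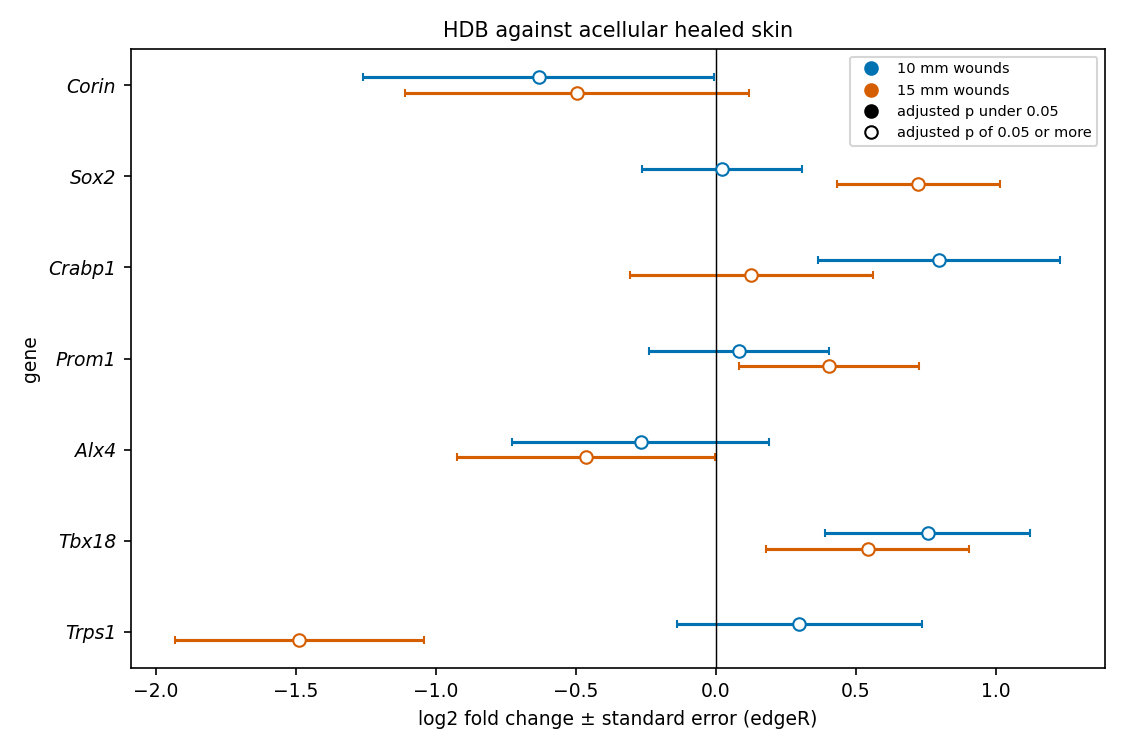
Log2 fold change ± standard error of HDB against acellular skin for each member (horizontal axis, edgeR) in 10 mm and 15 mm wounds, with open points where the adjusted p was 0.05 or more. All points are open, and Trps1 at 15 mm is the farthest from 0, at -1.49.

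Other genes of the follicle mesenchyme were taken from a list of 22, all of which were tested. Against normal skin, 2 of 22 were called lower in acellular 10 mm skin, 3 higher and 2 lower in acellular 15 mm skin, 2 lower in HDB 10 mm skin, and none in HDB 15 mm skin, beside 20.3%, 30.2%, 12.3% and 5.18% of all genes. In HDB 15 mm skin 7 of 22 had an unadjusted p under 0.05, beside 26.9% of all genes, and DESeq2 called 6, beside 18.6%. By edgeR no gene of the list was called between HDB and acellular skin at 10 mm or 15 mm, beside 0.0% and 2.93% of all genes. At an unadjusted p under 0.05 there were 1 at 10 mm and 7 at 15 mm, beside 3.53% and 23.2%. DESeq2 called none at 10 mm and 6 at 15 mm, beside 0.111% and 14.1%, and edgeR called 6 at 15 mm without acellular replicate 3 and 1 without acellular replicate 2, beside 14.9% and 4.19%. The median log2 fold change of the list over the mean of the healed groups was -0.03, beside 0.04 for all genes. The gene with the highest mean level in the list was Enpp2, which encodes autotaxin, at 174 CPM over the 15 samples.

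The genes of the list called higher in acellular 15 mm skin were Lef1, the nuclear partner of β-catenin, Vcan, a matrix proteoglycan of the papilla, and Prdm1, a transcriptional repressor. Lef1 held 228, 15.2 and 7.70 CPM there and 7.52, 4.29 and 4.96 CPM in normal skin (log2 fold change 3.90, SE 1.03, adjusted p = 0.0161, edgeR). The high value was that of replicate 1, the sample that was also highest for Corin and Trps1, and without it the log2 fold change was 1.04 and not called (adjusted p = 0.129). The call was also lost without normal replicate 2 or replicate 3 (adjusted p = 0.0582 and 0.0612, edgeR). Vcan held 114, 31.6 and 70.8 CPM in that group and 18.9, 24.2 and 16.4 CPM in normal skin (log2 fold change 1.86, adjusted p = 0.0263, edgeR), and over the mean of the healed groups its log2 fold change was 1.66 (adjusted p = 0.0222, edgeR). Without that replicate Vcan was not called in the group (log2 fold change 1.37, adjusted p = 0.0965), nor without any 1 normal sample (adjusted p = 0.0557 to 0.0897, edgeR), and Prdm1 still was (0.87, adjusted p = 0.0226). For Prdm1 the values were 1.63 (adjusted p = 0.0113, edgeR) and 0.90 (adjusted p = 0.0492, edgeR).

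Nog, which encodes the BMP antagonist noggin, was called lower, as Prom1 was, in 3 of the 4 healed groups. Normal skin held 10.3, 7.70 and 9.73 CPM of Nog, and the log2 fold change was -0.91 in acellular 10 mm, -1.15 in acellular 15 mm and -1.28 in HDB 10 mm skin (adjusted p = 0.0436, 0.0134 and 0.0213, edgeR). In HDB 15 mm skin Nog was also lower, without a call (-0.72). Sox18, a transcription factor of papilla and endothelium, was called lower in both acellular groups (log2 fold change -1.27 and -0.99). It was lower without a call in HDB 10 mm (-0.68) and HDB 15 mm skin (-0.31). Bmp6, a BMP ligand, was called lower in HDB 10 mm skin (-1.66, adjusted p = 0.0310, edgeR). Its values in acellular 10 mm, acellular 15 mm and HDB 15 mm skin were -1.04, -0.81 and -1.19, with no call. Over the mean of the healed groups all 3 of these genes were called lower. With 1 sample left out at a time, Nog stayed called in every such fit over the mean and in acellular 15 mm skin, while each of the other group calls of Nog, Sox18 and Bmp6 was lost in at least 4 of 6 fits. Omission of any 1 normal sample ended the calls of Sox18, Vcan and Prdm1 over the mean, and omission of normal replicate 1 or replicate 3 that of Bmp6. The call of Prdm1 over the mean was lost in 10 of 15 such fits (adjusted p up to 0.161, edgeR). Besides those without a normal sample, these were the fits without any 1 acellular 10 mm sample, HDB 10 mm replicate 2 or 3, or HDB 15 mm replicate 1 or 3.

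Markers of other cells are given beside these results. From a list of 12 genes of the hair shaft and its inner sheath, 11 were in the table. All 11 had higher fitted levels in each healed group than in normal skin, and 7 were called over the mean, beside 30.9% of all genes. In acellular 10 mm, acellular 15 mm, HDB 10 mm and HDB 15 mm skin 7, 11, 0 and 0 were called, beside 20.3%, 30.2%, 12.3% and 5.18%. Their median log2 fold change was 8.71, 11.9, 4.32 and 7.70 in that order. All 11, and all 6 genes of a hair matrix list, had lower fitted levels in HDB than in acellular skin at both sizes. None of them was called at 10 mm or 15 mm, beside 0.0% and 2.93% of all genes. The hair shaft genes' summed level was 6.51 to 6.76 CPM in normal skin, 16.9 to 1605 CPM in acellular 10 mm, 34.0 to 41.0 CPM in HDB 10 mm, 29.4 to 18053 CPM in acellular 15 mm and 117 to 625 CPM in HDB 15 mm skin. The keratins Krt25, Krt72, Krt73 and Krt86 were at 0 in some samples. The highest sum was that of acellular 15 mm replicate 1, the sample that was highest for Corin, Trps1 and Lef1. The 5 melanocyte markers also summed to 2357 CPM in acellular 15 mm replicate 1, beside 59.1 and 162 CPM in the other samples of that group. The part of the hair-forming tissue in the levels of the members was not tested.

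Skeletal muscle genes are given beside Prom1. All 6 of the list had lower fitted levels in each healed group than in normal skin. None was called in acellular 10 mm, acellular 15 mm, HDB 10 mm or HDB 15 mm skin, beside 20.3%, 30.2%, 12.3% and 5.18% of all genes. Their sum was 45017 to 50514 CPM in normal skin. The sum was 4339 to 24613 CPM in acellular 10 mm, 574 to 33130 CPM in HDB 10 mm, 556 to 17891 CPM in acellular 15 mm and 7649 to 24191 CPM in HDB 15 mm skin. Every healed sample was thus below the normal samples for both the sum and Prom1, and the part of muscle in the level of Prom1 was not tested.

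The 6 pericyte markers summed to 764 to 838 CPM in normal skin, 239 to 343 CPM in acellular 10 mm, 266 to 525 CPM in HDB 10 mm, 281 to 477 CPM in acellular 15 mm and 343 to 655 CPM in HDB 15 mm skin. Over the mean of the healed groups 3 of 6 were called lower, beside 30.9% of all genes called. In acellular 10 mm, acellular 15 mm, HDB 10 mm and HDB 15 mm skin 2, 2, 1 and 1 were called lower, beside 20.3%, 30.2%, 12.3% and 5.18%. Between HDB and acellular skin at 15 mm 1 was called lower, beside 2.93% of all genes, while 4 of 6 had higher fitted levels. None was called at 10 mm, beside 0.0%. The 8 fibroblast markers all had lower fitted levels than normal skin in both acellular groups (median log2 fold change -1.92 at 10 mm and -1.04 at 15 mm). Of these markers 5 were called at 10 mm and 1 at 15 mm, beside 20.3% and 30.2% of all genes. In HDB skin none was called against normal skin (median -0.54 at 10 mm and -0.16 at 15 mm), beside 12.3% and 5.18% of all genes. All 8 had higher fitted levels in HDB than in acellular skin at both sizes. None of these differences was called at 10 mm or 15 mm, beside 0.0% and 2.93% of all genes. Their sum was 7553 to 24672 CPM in normal skin, 3628 to 5600 CPM in acellular 10 mm and 9186 to 12148 CPM in HDB 10 mm skin, and 3520 to 15085 CPM and 8501 to 18674 CPM in the 15 mm groups. The part of either cell type in the levels of Tbx18 and Prom1 was not tested.

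**Figure D4:**
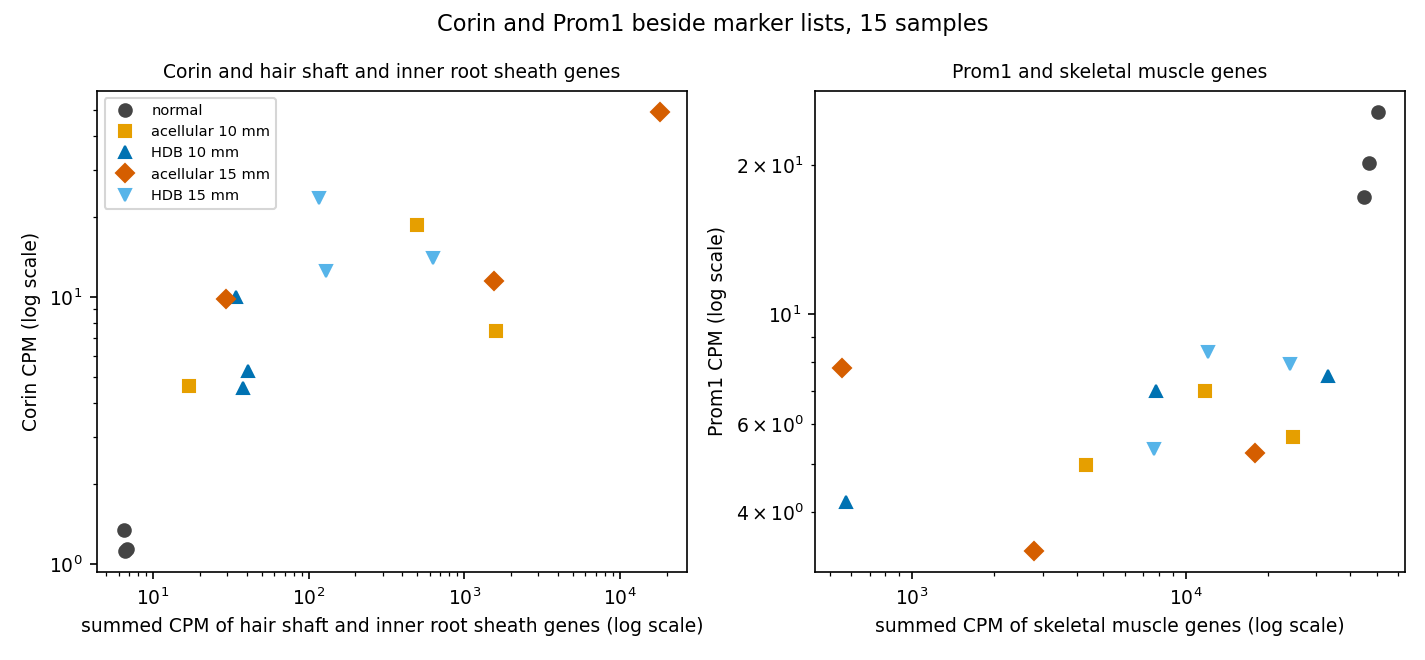
Level of Corin against the summed level of hair shaft and inner root sheath genes (left) and of Prom1 against that of skeletal muscle genes (right), in CPM on log scales, with a point for each of the 15 samples. The normal samples lie at the lower left for Corin and at the upper right for Prom1, apart from all 12 healed samples.

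The genes whose levels followed each member most closely were taken by Pearson's r of log2 CPM over the 15 samples, as a description, since the samples share groups and whole-tissue composition. Corin was most like Mex3a (r = 0.93), Adamts18 (0.92) and Sox4 (0.91). Prom1 was most like S1pr1 (0.96), a sphingosine phosphate receptor, Aqp1 (0.96), a water channel, and Carns1 (0.95). After group means were removed, r was 0.81 for Corin with Mex3a but 0.50 with Sox4, and 0.93 for Prom1 with Aqp1. Tbx18 was most like Lrrc32 (0.97), Pdgfrb (0.97), the receptor that is one of the pericyte markers, and Rasl12 (0.96), and r with Pdgfrb was 0.96 within groups.

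Trps1 was most like U2surp (0.97), Wiz (0.96) and Anapc1 (0.96). Weaker likeness was found for Alx4, with Sepsecs (0.85), Dnah8 (0.84) and Scube3 (0.83), for Crabp1, with Mmp10 (0.89), Unc5c (0.89) and Il1b (0.85), and for Sox2, with Armc2 (0.83), Ankrd1 (0.81) and B9d2 (0.80). The members themselves were not among each other's closest genes. By Pearson's r over the 15 samples the largest relation between any 2 of them was that of Corin with Prom1 (r = -0.82, Spearman's rho -0.49), and the next was Alx4 with Trps1 (r = 0.63, rho 0.85). After group means were removed r was -0.48 for Corin with Prom1, and the largest were Corin with Trps1 (0.78) and Prom1 with Tbx18 (0.77).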

How the data were processed

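RNA-seq of 15 mouse skin samples was analysed, 3 in each of 5 groups named in the labels. The deposited table holds estimated counts per gene, as RSEM gives them, without normalization. It lists 18929 genes, and every sample column was matched by its name, with 0 left over. The submitters' processing notes name HISAT2 2.0.4, Bowtie2 2.2.5, RSEM 1.2.12 and the build GRCm38.p6. The members and lists were chosen with earlier results of these data known.

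Counts were rounded to whole numbers and passed to edgeR 4.0.16 (R 4.3.3). After filterByExpr, which kept 15369 genes, and TMM scaling, a model with a mean for each of the 5 groups was tested by quasi-likelihood. Adjustment was by Benjamini-Hochberg over all genes, with a threshold of 0.05. A standard error was taken as the log2 fold change over the root of its F value. Log2 CPM used a prior count of 2. The scripts were tested on simulated data. Exact two-sided permutation tests used group labels over samples. Gene spans and promoters came from RefSeq, and strands, exon lengths and the genes overlapping those spans from GENCODE.

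The text names the 7 members, for each the 3 genes with the highest Pearson correlation over 15 samples, the called genes of the mesenchyme list with the largest changes, and list genes of highest level. Lef1, Krt25 and other genes beyond that were named because a result turned on them.

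Deviations of same-number samples had correlations of 0.397, 0.167 and 0.183 between the acellular and HDB 15 mm groups. Among the 10 pairs of groups, the lowest of the 3 correlations was highest there. All 3 were also positive between HDB 15 mm and normal skin (0.115, 0.136 and 0.0158). The same held between acellular 10 mm and normal skin (0.00255, 0.151 and 0.0622). The main fit used no pairing, and the replicate block was a term for the number over all 15 samples. Nothing in the labels says what a number marks. Alternatives were DESeq2 1.42.0, RLE size factors, no filter, a mean count of at least 50, a fit of the compared groups alone, a replicate block, and the omission of each replicate in turn. Removal of each sample's trend with transcript length, alone and with the block, was added after the data were seen.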

Additional observations from a re-analysis of the deposited data

How the results depend on the processing

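Among 1013 log2 fold changes of the members under an alternative, 926 kept their direction and their side of the threshold, 40 changed direction, 19 gained and 28 lost a call, and the cause of these changes was not tested. The number of members called by DESeq2 was 1 for HDB against acellular skin at 15 mm and 1 for the interaction. With a replicate block it was 1 in HDB 15 mm against normal skin, and 1 with the block and the length trend removed. The replicate block changed the call of Prom1 in that comparison. The number of members called with a sample omitted lay from 0 to 1 for HDB against acellular skin at 15 mm, from 1 to 3 in acellular 10 mm, from 0 to 2 in HDB 10 mm and from 0 to 2 in HDB 15 mm skin against normal skin. With the length trend removed, Crabp1 at 15 mm was -0.37 and, with the block as well, -0.38, and the interaction of Alx4 was 0.11 and 0.15. Sox2 in healed against normal skin was -0.00875 by DESeq2 and -0.0117 with RLE size factors.

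Omission of single samples turned the direction of small differences. Between HDB and acellular skin at 10 mm, Corin ranged from -1.04 to 0.12, Sox2 from -0.041 to 0.076, Prom1 from -0.048 to 0.32 and Alx4 from -0.62 to 0.50. At 15 mm Corin ranged from -0.86 to 0.64 and Crabp1 from -0.089 to 0.32. Over both sizes Corin ranged from -0.77 to 0.0048 and Alx4 from -0.54 to 0.017. The interaction ranged from -0.62 to 1.28 for Corin, from -0.96 to 0.16 for Alx4 and from -0.58 to 0.26 for Tbx18. Against normal skin, Sox2 ranged from -0.16 to 0.31 in acellular 10 mm, from -0.12 to 0.34 in HDB 10 mm, from -0.041 to 0.42 in HDB 15 mm and from -0.27 to 0.19 over the mean. Tbx18 ranged from -0.18 to 0.14 in HDB 10 mm skin and Trps1 from -0.049 to 0.11 in HDB 15 mm skin.

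The number of all genes called moved more. For HDB against acellular skin at 15 mm it was 450, but 2174 by DESeq2, 179 with a replicate block, 199 with no filter, 695 with a mean count of at least 50, 0 with the compared groups alone or the length trend removed, and 0 to 2322 with a sample omitted. By DESeq2 it was 17 rather than 0 at 10 mm, 424 rather than 0 over both sizes and 852 rather than 0 for the interaction. Against normal skin DESeq2 called 5058 genes rather than 3125 in acellular 10 mm, 3804 rather than 1895 in HDB 10 mm and 2864 rather than 796 in HDB 15 mm skin. With the compared groups alone the counts were 6196, 972, 2988 and 3401 in acellular 10 mm, acellular 15 mm, HDB 10 mm and HDB 15 mm skin, and the block gave 1187 for HDB 10 mm and 237 for HDB 15 mm skin. Sox2 had at most 55 counts in a sample, and whether that depth limits its comparisons was not tested.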
